A study of Mus musculus with 26 samples.

Results

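Small nucleolar RNAs (snoRNAs) and small Cajal body-specific RNAs (scaRNAs) were followed in single blastomeres of mouse 8-cell embryos. Members were the genes that the GENCODE M21 annotation types as snoRNA or scaRNA and that were chosen by their own RNA level, a value above 1 TPM (a length-corrected share of the RNA of a cell) in at least 3 of 9 cells. This rule kept 80 genes, 73 of type snoRNA and 7 of type scaRNA, out of 1558 such genes and 55487 genes of all types. The same filter kept 13463 genes of all types. The rule used the TPM values themselves, so the levels and detection counts of the members are given as a description and were not tested.

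RNA and DNA were separated from the same cells by scRR-seq, a method that keeps chromatin on carboxylic acid beads after lysis and takes the RNA from the liquid above them. The embryos were C57BL/6, made by in vitro fertilisation with no other treatment, and were taken apart by hand into blastomeres, so both embryos share strain and handling. Values were available for cells 1, 6 and 7 of embryo 1 (n = 3) and for cells 2, 3, 5, 6, 7 and 8 of embryo 2 (n = 6). The RNA fraction is the supernatant of the beads and was described by the study as mainly cytoplasmic, which limits what can be read of RNAs that reside in the nucleus. Each embryo is 1 biological replicate. Differences between embryos were therefore set beside the SD between cells and not tested. The study placed representative cells of embryo 1 in G1 or G2/M phase and described those of embryo 2 as in S phase. Embryo and cell-cycle phase cannot be told apart in any comparison of the embryos.

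The columns carried closing numbers from 11 to 17 (embryo 1 cell 1, embryo 2 cells 2 and 3) or from 20 to 25 (the other 6 cells), and both ranges hold cells of both embryos. The study's sample list describes these ranges as different lysis volumes and cDNA handling, which the labels do not state. Each cell had 11058 to 13319 genes above 1 TPM, with a mean of 12903 in the range 11 to 17 and 11469 in the range 20 to 25. All 8 blastomere markers examined passed the filter, among them Pou5f1 and Dppa3. Of 6 cumulus cell markers 1 passed (Amhr2, above 1 TPM in 9 cells), with Has2 and Ptgs2 listed at 0, and none of 4 sperm markers passed, with Tnp1 and Tnp2 listed at 0. TPM keeps no read depth, so genes with no signal are given here as listed at 0.

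snoRNAs guide the chemical modification of ribosomal RNA in the nucleolus. C/D box snoRNAs direct 2'-O-methylation and carry the C box and the D box near their ends, and H/ACA box snoRNAs direct pseudouridylation and carry a hinge H box and a closing ACA. A few, such as U3, U8, U14, U17 and U22, take part in cleavage of the ribosomal RNA precursor. scaRNAs guide the same modifications on spliceosomal small nuclear RNAs in Cajal bodies. Most of these RNAs in vertebrates are cut from the introns of host genes after splicing, so that the intron that holds one is also the source of its sequence in unspliced RNA. The 8-cell stage follows the onset of embryonic transcription.

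By the RefSeq product name, or by the symbol or annotated type where there was none, 44 members were H/ACA box RNAs, 20 were C/D box RNAs, 8 were scaRNAs and 8 had no assigned class. Classes follow these names only. Members named U89 (Gm23547), U109 (Gm24507 and Gm25663) and U2-19 (Gm24339) were left without a class and are not counted as scaRNAs. Scarna10, named a scaRNA, is typed snoRNA by the annotation. A RefSeq product was found for 72 of the 80 members, including 44 of the 46 with a Gm symbol. The sequences below are the annotated genes in the GENCODE M21 transcripts (GRCm38, the build called mm10), written as DNA from 5′ to 3′. The first 6 are the C/D box RNAs of the non-coding host genes Gas5 and Snhg1. They are shown because they include the members with the highest TPM and those with the sharpest contrast between cells. Capitals mark the C box letters TGATGA within the first 20 bases and the D box letters CTGA within the last 20 bases.
Gm23212 (SNORD44): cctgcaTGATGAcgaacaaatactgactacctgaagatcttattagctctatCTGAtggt
Snord78: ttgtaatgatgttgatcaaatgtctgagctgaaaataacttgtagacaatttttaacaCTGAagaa
Gm25789 (SNORD81): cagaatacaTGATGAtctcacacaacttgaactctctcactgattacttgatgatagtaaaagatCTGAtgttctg
Gm22357 (SNORD24): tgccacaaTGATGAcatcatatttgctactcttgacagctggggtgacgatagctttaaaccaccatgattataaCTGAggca
Gm22744 (SNORD29): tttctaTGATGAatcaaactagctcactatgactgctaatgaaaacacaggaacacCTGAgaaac
Gm24452 (SNORD27): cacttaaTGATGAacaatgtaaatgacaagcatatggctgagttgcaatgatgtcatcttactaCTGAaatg

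These genes lie on the plus strand, in Gas5 at chr1:161036682-161036741 (Gm23212), chr1:161036984-161037049 (Snord78), chr1:161038308-161038383 (Gm25789) and chr1:161036057-161036139 (Gm22357), and in Snhg1 at chr19:8725092-8725156 (Gm22744) and chr19:8724531-8724602 (Gm24452). All 6 lie in introns of the spliced host RNA, and a retained-intron transcript of the host covers each of them in full. Among all C/D box members, 10 of 20 held both sets of letters in these windows, compared with 274 of the 368 C/D box genes that were not members (74.5%). The search was on the annotated strand and needed the exact letters, so that the closely related tgatgt of Snord78 is no match. Letters farther inside are missed as well, as in the U3 member Rnu3a of 213 bases. The C/D members also include 4 Rnu3b genes of 1 sequence. The shares thus count letters in these windows and do not measure how many genes have a C box.

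The second set shows H/ACA box RNAs and 1 scaRNA. The H/ACA RNAs carry results on detection in every cell (Snora23), on copies (Gm22579 and Gm24095) and on the closing numbers (Gm24455). Capitals mark the letters ANANNA nearest the middle (the H box form) and ACA within the last 6 bases, and in the scaRNA the letters TGAG.
Snora23: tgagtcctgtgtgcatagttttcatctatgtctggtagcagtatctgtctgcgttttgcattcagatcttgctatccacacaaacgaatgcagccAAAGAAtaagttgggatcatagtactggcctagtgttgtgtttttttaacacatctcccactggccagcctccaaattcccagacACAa
Gm22579 (SNORA25): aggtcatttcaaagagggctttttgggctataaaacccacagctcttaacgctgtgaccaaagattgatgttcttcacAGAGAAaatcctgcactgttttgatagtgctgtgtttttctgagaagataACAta
Gm24095 (SNORA25): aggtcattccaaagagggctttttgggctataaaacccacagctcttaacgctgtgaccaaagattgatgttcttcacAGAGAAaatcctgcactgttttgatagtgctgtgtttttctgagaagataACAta
Gm24455 (SNORA18): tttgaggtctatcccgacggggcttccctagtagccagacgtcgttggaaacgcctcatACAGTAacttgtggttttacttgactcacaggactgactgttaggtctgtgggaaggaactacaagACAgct
Gm25395 (scaRNA 6): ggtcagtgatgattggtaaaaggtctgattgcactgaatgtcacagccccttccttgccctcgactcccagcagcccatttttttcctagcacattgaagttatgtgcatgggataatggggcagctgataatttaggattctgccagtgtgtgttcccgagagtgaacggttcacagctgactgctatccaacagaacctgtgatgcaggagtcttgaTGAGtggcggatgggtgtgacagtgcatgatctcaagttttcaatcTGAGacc

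Snora23 lies at chr7:110046364-110046547 (plus strand, an intron of Ipo7), Gm22579 at chr9:15316676-15316808 and Gm24455 at chr9:15313802-15313932 (plus strand, both in Taf1d), Gm24095 at chr13:62543203-62543335 (minus strand, an intron of Zfp934) and Gm25395 at chr1:87776938-87777209 (plus strand, an intron of Atg16l1). ACA was within the last 6 bases of 42 of 44 H/ACA members and of 469 of the 722 other H/ACA genes (65.0%).

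Detection was the first question. Of the 1558 family genes, 1358 were listed at 0 in all 9 cells, 120 were above 1 TPM in 1 or 2 cells and 80 were members. No family gene had a value between 0 and 1 as its highest. The threshold thus separated genes seen in 3 cells from genes not seen in 3 cells: all 1478 genes outside it had a third-highest value of 0, and the lowest third-highest values inside it were 1.24 (Snora64), 1.62 (Snora81) and 2.06 (Snora61). Members were 5.74% of H/ACA genes (44 of 766), 5.15% of C/D genes (20 of 388) and 15.1% of scaRNA genes (8 of 53).

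Detection differed by length. Of the 352 family genes of up to 90 bases 11 were members (3.12%), compared with 2 of 249 genes of 91 to 120 bases (0.803%), 50 of the 884 in the most common length class, which starts at 121 bases (5.66%), and 17 of 73 longer genes (23.3%). The 11 shortest members had high values where they were seen and many values at 0: their median value above 0 was 46.3 TPM, and 56.6% of their values were 0. The 17 longest members had a median of 6.91 TPM above 0 and 29.4% of their values at 0. TPM divides by length, so the same signal gives a higher TPM in a shorter gene.

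Position in a host gene was known from the annotation alone, and the host's own TPM was not used by the rule. A host was a longer gene on the same strand that spans the small RNA. Members lay in a host in 73 of 80 cases, compared with 696 of all 1558 family genes (44.7%). The hosts of all 73 passed the TPM filter themselves, and none of the 106 family genes in a host that did not pass was a member. Of the 862 family genes with no host, 7 were members: Rnu3a (U3), Snord118 (U8), Scarna2, Gm22304, Gm23119, Gm23505 and Gm25767. Within expressed hosts, 44 of 146 family genes overlapped by an annotated host exon were members (30.1%), compared with 29 of 444 in introns only (6.53%).

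**Figure D1:**
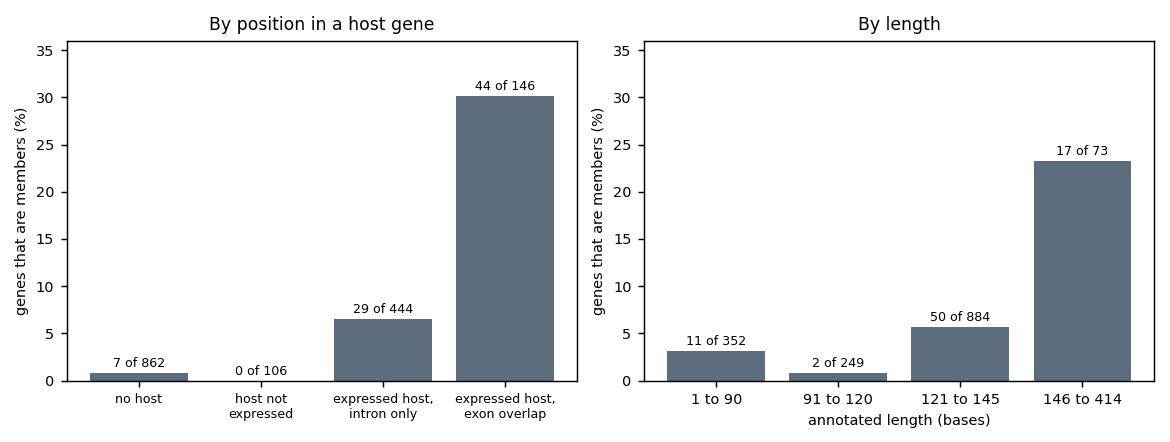
Percent of snoRNA and scaRNA genes that were members (TPM > 1 in at least 3 of 9 cells), by position in a host gene (left) and by annotated length in bases (right), with counts above the bars. The share was highest for genes that a host exon overlaps (44 of 146) and for the longest genes (17 of 73).

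Host exons can share reads with a member. Of the 73 members in a host, 39 were covered wholly and 5 partly by an exon, and in 28 of these 44 every such exon belonged to a retained-intron transcript. Exons of any longer gene that spans the member on its strand were counted, not only those of the named host. No overlapping transcript of the named host with TPM values was found for Gm25663, Snora73a and Mir1949. For the other 41 of the 44 the overlapping host transcripts had TPM values of their own. These were above 0 in 306 of 369 member and cell combinations. In 146 combinations the host transcript was above 0 while the member was listed at 0, and in 25 the reverse was found. How reads were split between a member and such transcripts was not tested.

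Most members were seen in a few cells. Of the 720 member values, 330 (45.8%) were 0. There were 18 members above 1 TPM in exactly 3 cells and 26 in exactly 4. Only Snora73b, Snora23, Rnu3a and Scarna2 were above 1 TPM in all 9 cells (4 of 80), whereas 53.6% of the 13463 passing genes of all types were.

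Snora73b, a U17 RNA of ribosomal RNA precursor cleavage, had 33.4, 12.8 and 60.8 TPM in cells 1, 6 and 7 of embryo 1. In cells 2, 3, 5, 6, 7 and 8 of embryo 2 it had 50.3, 66.7, 13.3, 56.4, 22.8 and 52.1 TPM. Cell 6 of embryo 1 and cell 5 of embryo 2 were lowest, and the embryos overlapped. Rnu3a, a U3 gene with no host, had 8.19, 5.01 and 25.2 TPM in embryo 1 and 4.54, 24.4, 4.22, 31.1, 8.18 and 36.9 TPM in embryo 2, in the same order of cells. Its high cells were spread over both embryos. Snora23, an H/ACA RNA in an intron of the import receptor gene Ipo7, had 25.4, 37.4 and 17.9 TPM in embryo 1 and 11.3, 15.9, 16.4, 24.1, 25.5 and 45.9 TPM in embryo 2, again with overlap.

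The other cleavage RNAs were lower or seen in fewer cells. Snord118 (U8) had 8.50, 10.5 and 0 TPM in embryo 1 and 0, 8.85, 0, 32.1, 0 and 17.3 TPM in embryo 2. Snord22 (U22), in Snhg1, had 11.4, 19.0 and 22.1 TPM in embryo 1 and 8.79, 20.0, 0, 11.5, 0 and 0 TPM in embryo 2. Of the U14 genes, Snord14a was above 1 TPM in 3 cells and Snord14e, in the chaperone gene Hspa8, in 4 cells, with highest values of 26.3 and 49.8 TPM.

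**Figure D2:**
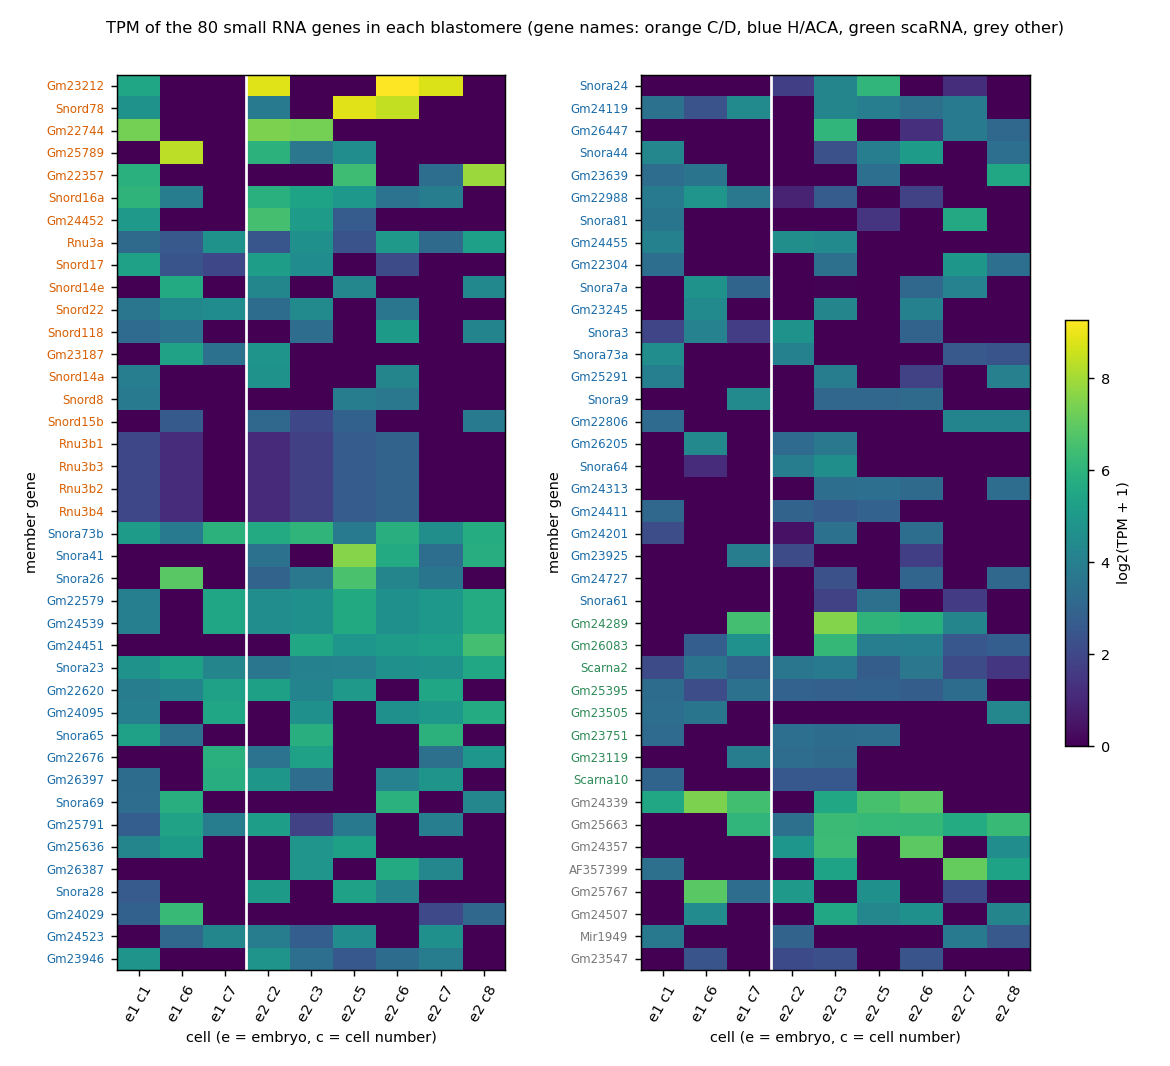
Heat map of log2(TPM + 1) of the 80 members (rows, sorted by mean TPM within class) in the 9 cells (columns, embryo 1 left of the white line); the darkest colour is a value of 0. Most rows alternate between 0 and high values, and Snora73b, Snora23, Rnu3a and Scarna2 are above 0 in every column.

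scaRNAs ranged widely. Scarna2, the longest member at 414 bases, had 3.50, 10.7 and 6.14 TPM in embryo 1 and 11.6, 12.8, 5.70, 11.8, 3.44 and 1.74 TPM in embryo 2, and it was above 1 TPM in every cell. Gm25395 (scaRNA 6) had 8.82, 3.61 and 10.3 TPM in embryo 1 and 6.52, 6.15, 6.36, 5.62, 8.74 and 0 TPM in embryo 2, a narrow range apart from cell 8. Gm24289 (scaRNA 14), in Tipin, had 0, 0 and 90.4 TPM in embryo 1 and 0, 186, 63.9, 56.1, 17.6 and 0 TPM in embryo 2. Gm26083, in Snhg20, reached 71.9 TPM in embryo 2 cell 3 and was listed at 0 in embryo 1 cell 1 and embryo 2 cell 2. The summed TPM of the scaRNAs was highest in embryo 2 cell 3 (299 TPM), the cell in which both of these peaked.

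The remaining members classed as scaRNAs had values under 20 TPM and were seen in 3 or 4 cells. Gm23751 (scaRNA 11), in Chd4, had 8.39, 9.47, 8.73 and 9.01 TPM in the 4 cells in which it was seen. Gm23119 (scaRNA 17) had 14.1, 8.97 and 8.28 TPM in 3 cells, and Gm23505 (scaRNA 14) had 9.14, 11.2 and 18.7 TPM in 3 cells. Scarna10, in Ncapd2, was seen in 3 cells with 7.04, 4.83 and 4.91 TPM.

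Some members of equal length in the same cell had values in whole-number ratios. In embryo 2 cell 3, 133-base members had 9.10 (Gm24313), 27.3 (Gm25636) and 45.5 TPM (Gm24451), with ratios to Gm24313 of 3.00 and 5.00, whereas Gm22579 (24.2 TPM), Gm22620 (17.1 TPM) and Snora9 (7.45 TPM), of the same length, gave no whole ratio to it. In the same cell the 135-base members Snord118, Gm23245 and Gm24289 had 8.85, 17.7 and 186 TPM, with ratios to Snord118 of 2.00 and 21.01. Of 169 pairs of unequal values of equal length, 27 had a ratio within 0.01 of a whole number, of which 1 rests on a value of 0.04 TPM (Snora7a), and 11 further pairs were equal. Most pairs thus had no such ratio. The reads behind a value are not given by TPM, so no counting interval was computed.

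Copies of the same sequence could not be told apart. Rnu3b1, Rnu3b2, Rnu3b3 and Rnu3b4, U3 genes in Tex14, have 1 shared sequence of 215 bases and equal values in every cell, from 0 to 6.77 TPM. Gm22579 in Taf1d and Gm24539 in Zfp808 (both SNORA25) also have 1 sequence and equal values, and Gm24095 differs from Gm22579 by 1 mismatch in 133 bases and had the same TPM in 7 of 9 cells and 0 in the other 2. The 80 members thus hold 76 distinct profiles of values. Which copy a signal came from cannot be told apart.

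Short C/D RNAs of Gas5, a non-coding gene known for its snoRNAs, held ranks 1, 2, 6 and 8 by mean TPM. Gm23212 (SNORD44) had the highest mean, 172 TPM over 9 cells. Embryo 1 cells 1, 6 and 7 had 43.7, 0 and 0 TPM, and embryo 2 cells 2, 3, 5, 6, 7 and 8 had 452, 0, 0, 619, 435 and 0 TPM. It was listed at 0 in 5 cells, and its values in 3 cells of embryo 2 were among the highest of any member. Snord78 (mean 94.0 TPM) had 26.1, 0 and 0 TPM in embryo 1 and 13.2, 0, 467, 339, 0 and 0 TPM in embryo 2. Gm25789 (SNORD81, mean 47.2 TPM) had 0, 330 and 0 TPM in embryo 1 and 60.6, 11.9, 22.5, 0, 0 and 0 TPM in embryo 2. Gm22357 (SNORD24, mean 42.7 TPM) had 57.8, 0 and 0 TPM in embryo 1 and 0, 0, 82.4, 0, 9.13 and 235 TPM in embryo 2.

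These 4 peaked in different cells although they come from 1 host. Gas5 itself varied little, from 655 to 1045 TPM (1.59-fold). Spearman's rho with Gas5 over the 9 cells was -0.20 for Gm23212, 0.018 for Snord78, 0.18 for Gm25789 and -0.31 for Gm22357. The retained-intron transcripts of Gas5 that cover Gm23212 were above 0 in all 9 cells, from 52.3 to 177 TPM, including the 5 cells in which Gm23212 was listed at 0. The other 6 annotated small RNA genes of Gas5 were not members.

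Snhg1, the non-coding host that includes U22, held 3 members. Gm22744 (SNORD29) had 160, 174 and 162 TPM in embryo 1 cell 1 and embryo 2 cells 2 and 3, and was listed at 0 in the other 6 cells. Gm24452 (SNORD27) had 30.8, 92.5 and 32.7 TPM in the same 3 cells, 5.56 TPM in embryo 2 cell 5 and 0 in the other 5 cells. These 3 cells are those of the closing numbers 11 to 17. Snhg1 was not higher there, with 186, 279 and 288 TPM compared with 298 to 495 TPM in the other 6 cells, and the third member, Snord22, was seen in both ranges. The Snhg1 transcripts that cover Gm22744 and Gm24452 were above 0 in all 9 cells, from 4.59 to 70.0 TPM and from 34.97 to 142 TPM.

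Taf1d, which encodes a subunit of the RNA polymerase I selectivity factor, held 5 members among its 8 annotated small RNA genes. Gm22579 (SNORA25) had 14.96, 0 and 44.0 TPM in embryo 1 and 22.6, 24.2, 49.2, 23.9, 29.8 and 51.2 TPM in embryo 2. Gm22620 (SNORA1) had 14.03, 17.2 and 38.8 TPM in embryo 1 and 37.7, 17.1, 31.5, 0, 42.3 and 0 TPM in embryo 2. Both were seen in most cells of both embryos. Gm25791 (SNORA8) ranged from 0 to 39.9 TPM and was listed at 0 in 2 cells, the same 2 of embryo 2 (cells 6 and 8) as Gm22620. Gm24357 (Z40) was listed at 0 in all 3 cells of embryo 1 and had 28.0, 80.5, 0, 123, 0 and 22.3 TPM in embryo 2. Gm24455 (SNORA18) had 15.7, 22.96 and 20.6 TPM in the 3 cells numbered 11 to 17 and 0 in the other 6. Taf1d itself ranged from 73.9 to 365 TPM, with its lowest value in embryo 1 cell 1.

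**Figure D3:**
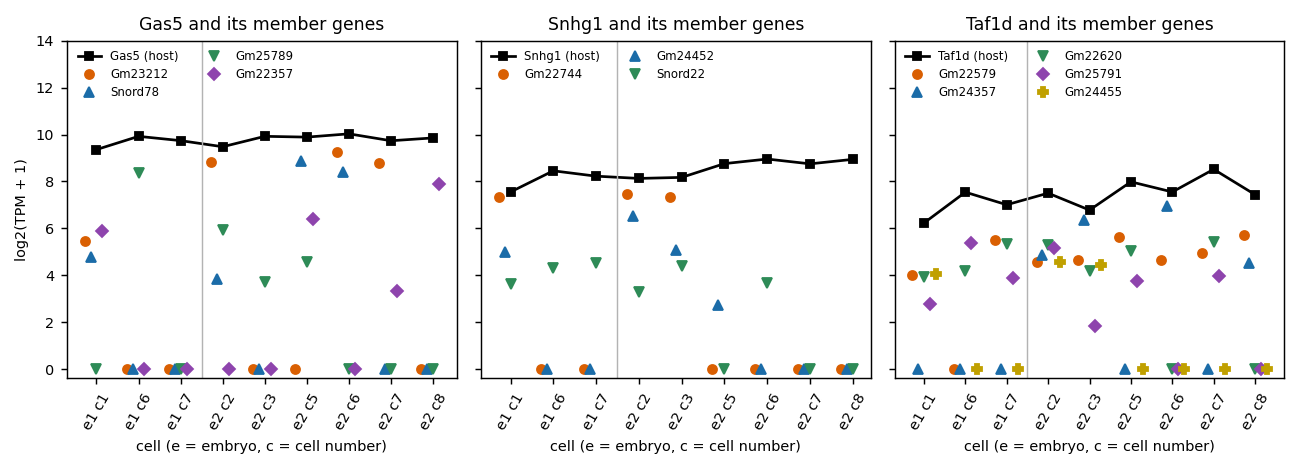
log2(TPM + 1) of the host genes Gas5, Snhg1 and Taf1d (black line) and of their member small RNAs (coloured symbols, offset sideways so that those at 0 can be seen) in the 9 cells, embryo 1 left of the grey line. Each host is above 0 in all cells while its members change between 0 and high values, and in the Snhg1 panel Gm22744 is above 0 only in embryo 1 cell 1 and embryo 2 cells 2 and 3.

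Tex14, a germ cell gene with a mean of 4.17 TPM, held 4 members among its 8 annotated small RNA genes, the Rnu3b copies described above. The translation initiation helicase genes Eif4a2 and Eif4a1 held 3 of 5 and 2 of 3. In Eif4a2, Gm26447 (SNORA63) reached 67.5 TPM in embryo 2 cell 3, Snora81 reached 47.1 TPM in embryo 2 cell 7 and Gm24201 (SNORA63) reached 10.3 TPM. Nop56, which encodes a core protein of C/D particles, held Gm24451 (SNORA51) and Gm23187 (SNORD86). Snhg12 held Snora44 and Snora61, and Snhg17 held Gm24411 and Gm23925 (both SNORA71), with mean levels of 1.59 to 8.89 TPM. Eef1b2, Hspa8, Rpl4 and Rpl5 each had 3 or more annotated small RNA genes and 1 member (Snora41, Snord14e, Snord16a and Gm26387).

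The 73 members in a host were next compared with their hosts. They lay in 53 host genes, and 56 of them in a protein-coding one. Ribosomal protein genes held 12 members, and Snhg genes, Gas5 and Dancr held 15. Host means ranged from 3.30 to 5151 TPM with a median of 184 over members. The median member mean was 6.83% of its host's mean. In 5 cases the member was above its host: Gm24339 (62.8 TPM against 16.9 TPM of Cep295), Snora26 (29.4 against 27.8 of Dancr), Gm24539 (28.9 against 6.73 of Zfp808), Gm26083 (15.9 against 4.78 of Snhg20) and Mir1949 (4.17 against 3.30 of Gm28285). TPM is a level per length, so these are levels per base of annotated RNA. Gm24539 shares its sequence and values with Gm22579 in Taf1d, a host with a mean of 184 TPM. Which of these hosts its signal belongs to cannot be told apart.

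Member and host levels were compared by rank over the cells. The median Spearman's rho over 9 cells was 0.073 for the 73 pairs, with 42 above 0 and 30 below. Values ranged from -0.78 (Gm22744 and Snhg1) to 0.82 (Scarna10 and Ncapd2). Both of these members were above 1 TPM in exactly the 3 cells numbered 11 to 17. Their rho thus depends mainly on whether the host was lower or higher in that range. The median rho was 0.073 for the 29 members in introns only and 0.067 for the 44 overlapped by a host exon. For members and their overlapping host transcripts the median was 0.10 (n = 41). The 9 points share the libraries, each sum of TPM is fixed, and many member values are 0, so these are descriptions.

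**Figure D4:**
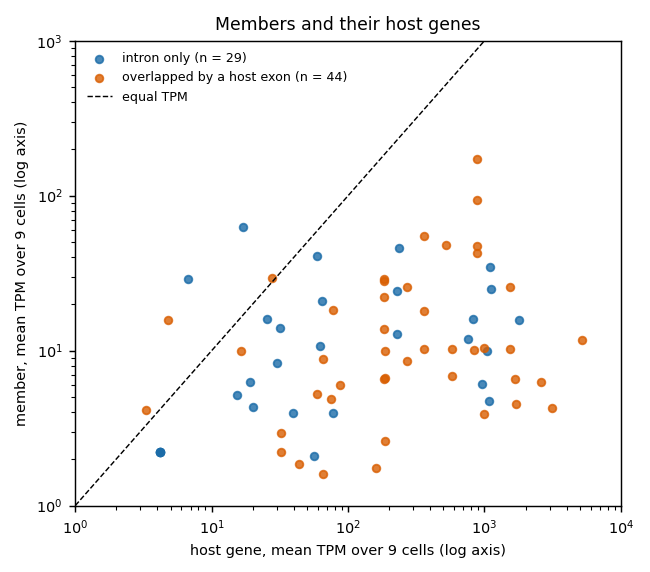
Mean TPM over 9 cells of each member (vertical, log axis) against that of its host gene (horizontal, log axis) for the 73 members with a host; the dashed line marks equal TPM. Most points lie below the line, and 5 members lie above it.

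Members took 0.0839% to 0.205% of the TPM of a cell. Embryo 1 had a mean of 0.106% ± 0.027 (SD, n = 3 cells), and embryo 2 had a mean of 0.153% ± 0.034 (SD, n = 6 cells). These means lay 0.047 percentage points apart, with a pooled SD of 0.032, and the ranges of the embryos overlapped. Some members, among them Snora41, Gm24451 and Gm24357, were listed at 0 in all cells of embryo 1. They passed the filter only through embryo 2 and add to its sum alone. The gap, and those of the class sums below, thus follow in part from the rule and are no result about the embryos. The gap was 0.057 within the closing numbers 11 to 17 and 0.043 within 20 to 25. Without Gm23212, the member of highest mean, the difference was 0.024 percentage points. By class, C/D members summed to 344 ± 246 TPM in embryo 1 and 647 ± 334 TPM in embryo 2, with a pooled SD of 311, and H/ACA members to 462 ± 76 and 574 ± 112 TPM, with a pooled SD of 103.

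**Figure D5:**
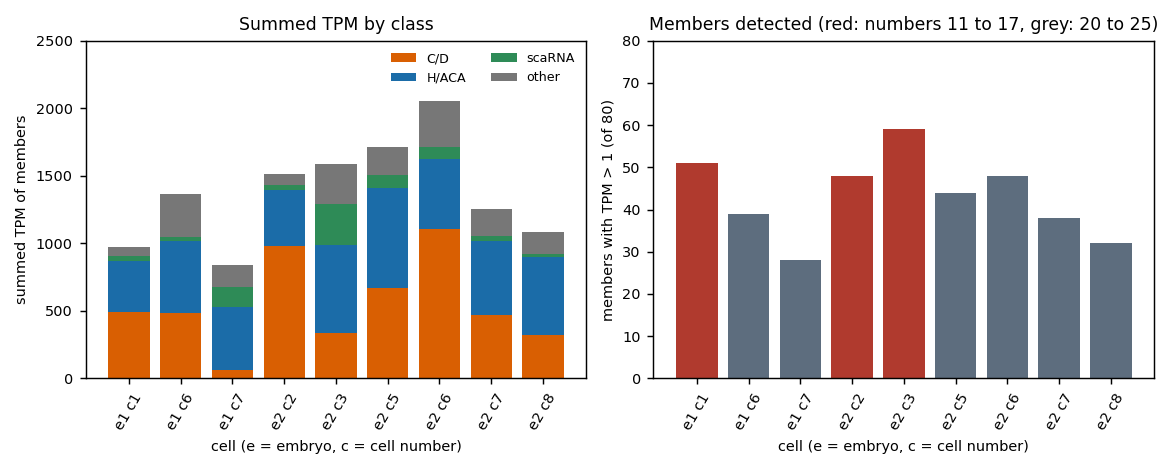
Summed TPM of the members by class (left, stacked bars) and number of the 80 members above 1 TPM (right) in each of the 9 cells. C/D members vary most between cells, from 60.2 TPM in embryo 1 cell 7 to 1104 TPM in embryo 2 cell 6, and the number detected runs from 28 to 59.

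Member by member, the embryos overlapped. None of the 80 members was higher in every cell of embryo 2 than in every cell of embryo 1, compared with 0.884% of the 13463 passing genes. Only 1 member (1.25%) was lower in every cell of embryo 2, compared with 2.56% of passing genes. This was Gm22988 (SNORA48, in Eif4a1), with 12.9, 27.5 and 12.1 TPM in embryo 1 and 0.83, 5.56, 0, 2.53, 0 and 0 TPM in embryo 2. Neither share exceeded that of all genes. The median member difference in mean log2(TPM + 1), embryo 2 minus embryo 1, was 0.31, compared with -0.046 for all passing genes and 0.11 for the 53 hosts, with 50 members above 0 and 30 below. It was smaller than the pooled SD of the cells' member mean of 0.43, and leaving out cell 1 of embryo 1 gave 0.84, while leaving out its cell 7 gave -0.12. A member seen in 1 embryo only passed the filter through that embryo and so had to differ between them. This holds for some of the 18 members that passed with exactly 3 cells and for some seen in more cells.

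The largest differences in favour of embryo 2 were 4.53 for Gm24451, 4.31 for Snora41, 3.78 for Gm24357, 3.66 for Gm25663 and 2.65 for Gm23212 on the log2(TPM + 1) scale. Gm24451 (SNORA51) was listed at 0 in embryo 1 and had 0, 45.5, 28.2, 33.0, 36.2 and 89.2 TPM in embryo 2. Snora41 was listed at 0 in embryo 1 and had 10.0, 0, 190, 50.2, 9.19 and 54.3 TPM in embryo 2. Gm25663 (U109, in Uchl5) had 0, 0 and 67.8 TPM in embryo 1 and 9.61, 79.7, 72.7, 71.6, 51.4 and 78.0 TPM in embryo 2, so that embryo 1 cell 7 lay among the embryo 2 cells. In favour of embryo 1 were Gm24339 (-3.31), Gm22988 (-3.21), Snord22 (-2.27), Gm24029 (-2.18) and Gm23187 (-2.13). Gm24339 (U2-19, in an intron of Cep295) had 46.0, 173 and 86.7 TPM in embryo 1 and 0, 46.3, 93.8, 119, 0 and 0 TPM in embryo 2. Gm24451, Snora41 and Gm24357 were listed at 0 in all cells of embryo 1. They passed the filter only through embryo 2 and had to differ, so their differences are given with no spread. Among the others of these 10, the differences of Gm23212 and Gm23187 did not reach their pooled SD (4.48 and 2.201).

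More members were seen in the cells numbered 11 to 17. The number above 1 TPM was 51, 48 and 59 in these 3 cells and 28 to 48 in the 6 cells numbered 20 to 25, with means of 52.7 and 38.2. The difference was -14.5 members, beside a pooled SD of 6.9. It was -17.5 within embryo 1 (1 cell against 2) and -13 within embryo 2 (2 cells against 4). The rule used these same counts, and some members, such as Gm22744, Gm24455 and Scarna10, passed it only through the range 11 to 17. The difference is therefore a description and no result about the members. The number of genes of all types above 1 TPM was also lower in the second range (above), and the part of that difference in the member counts was not tested. The summed TPM did not differ beyond its spread (1358 ± 333 and 1386 ± 439 TPM).

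No member was higher in every cell of the range 20 to 25, compared with 1.26% of passing genes, and 6 members (7.5%) were lower in every cell, compared with 6.43%. The 6 were Gm22744, Gm24452, Gm24455, Snord16a, Snord17 and Scarna10. With the median of each cell set to a common value, genes higher in the second range rose from 16.3% to 43.3% of all non-overlapping genes, and members were 1 higher and 6 lower (7.5%), compared with 3.48% of passing genes lower. Gm22744, Gm24455 and Scarna10 were above 1 TPM in exactly the 3 cells numbered 11 to 17, so these 3 of the 6 passed the filter only through that range and had to differ. Gm24452 was above 1 TPM in those cells and otherwise only in embryo 2 cell 5 (5.56 TPM), so it too passed the filter only through that range. The count is therefore no result about the members. Snord17, in an intron of Snx5, had 38.6, 35.1 and 22.02 TPM in the 3 cells numbered 11 to 17 and at most 4.31 TPM in the others. Snord16a, in Rpl4, had 64.9, 57.5 and 40.6 TPM in those 3 cells and 0 to 29.8 TPM in the others.

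On the log2(TPM + 1) scale the 5 largest differences, 20 to 25 minus 11 to 17, were -7.38 for Gm22744, -5.08 for Gm24452, -4.36 for Gm24455, -3.91 for Snord17 (pooled SD 1.04) and -3.06 for Snord16a (pooled SD 1.83). Gm22744, Gm24452 and Gm24455 passed the filter only through the range 11 to 17, so their differences follow from how they were selected and are given with no spread. The fitted size for genes at 0 in all cells of a range depends on the pseudocount and is no bound. The median member difference was -0.48, compared with -0.29 for all passing genes and -0.067 for the 53 hosts. It was -0.75 for the 44 members overlapped by a host exon and 0.00 for the 29 in introns only, a split added after the values were seen, but these did not hold within each embryo. Within embryo 1 the medians were 0 (host exon) and -0.44 (intron), and within embryo 2 they were -1.08 and 0.25. The median over all members was -0.15 within embryo 1 and -0.091 within embryo 2, -0.25 when cells were centred, which shifted the median of all genes by 0.22, and between -0.26 (without embryo 2 cell 8) and -0.64 (without embryo 2 cell 2) when a cell was left out.

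RNAs that encode the proteins of these particles were present throughout. The genes of all 4 core proteins of C/D particles and all 4 of H/ACA particles were above 1 TPM in all 9 cells. Fbl, the methyltransferase, had 172 to 354 TPM, and Dkc1, the pseudouridine synthase, had 71.6 to 223 TPM. The 12 assembly factors, the 8 Cajal body and processing factors and the 5 nucleolar genes were also above 1 TPM in every cell. Among processing factors, Dbr1, which opens intron lariats, had 4.27 to 27.8 TPM, and Coil, the Cajal body scaffold, had 8.80 to 87.0 TPM. Over the embryos, no gene of these 5 lists was without overlap, and their median differences ran from -0.32 (H/ACA core) to 0.18 (nucleolus). Between the number ranges, 1 of 4 H/ACA core genes (Nhp2), 1 of 12 assembly factors (Nolc1), 1 of 8 Cajal body and processing factors (Exosc10) and 1 of 5 nucleolar genes (Polr1a) were lower in every cell of the range 20 to 25. Of the assembly factors, 1 was higher (Tgs1). Among all passing genes 6.43% were lower and 1.26% higher, and these few genes are no result about the lists. The list medians ran from -0.56 (nucleolus) to -0.031 (C/D core), beside -0.29 for all passing genes.

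Other small RNAs gave a comparison for detection, and 5 of 8 examined passed the filter. Rn7sk, the 7SK RNA, had 1131 to 4809 TPM, and Rn7s1, a 7SL RNA, had 1786 to 4757 TPM. Rn7s2 had the same values as Rn7s1 in every cell, so both count among the 5 though their signals cannot be told apart. Terc, the telomerase RNA, which is itself an H/ACA RNA but is not typed as one by the annotation, was listed at 0 in all 9 cells. By gene type, 5.13% of snoRNA and scaRNA genes together passed the filter, compared with 5.99% of snRNA genes, 5.89% of miRNA genes and 49.0% of protein-coding genes.

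Replication states were read for the 40 kb bins that hold the members, as an independent readout of the DNA. A bin was available for 73 members, and 7 lay on chromosomes without bins in the table. In the 6 cells of embryo 2, 100, 91.8, 100, 87.7, 100 and 100% of these members were in replicated bins, with a mean of 96.6% ± 5.5 (SD, n = 6 cells), compared with 94.2% ± 6.3 for all passing genes and 75.1% for all bins. The difference from all passing genes was smaller than the SD between cells. In embryo 2, 58 of the 73 were replicated in every cell and 15 were not replicated in 1 cell each, so that 79.5% were replicated in all 6 cells, compared with 73.1% of all passing genes. Among these were the 4 Tex14 genes in cell 3 and Snord16a and Gm22988 in cell 6. In embryo 1, 4, 1 and 0 of the 73 members were in bins scored as replicated in cells 1, 6 and 7 (5.48, 1.37 and 0%). These shares were near the 4.03, 1.12 and 0% of all passing genes. Representative cells of embryo 1 had uniform profiles and were placed by the study in G1 or G2/M phase. Their scores therefore do not show whether the DNA was unreplicated or fully replicated.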

How the data were processed

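Gene and transcript TPM values were deposited by the authors for each cell with no pooling. Per the study's methods, reads were set to about the same number per cell, aligned to mm10 with Hisat and quantified by RSEM with GENCODE M25 in the ramdaq pipeline. TPM keeps no depth. The deposited replication state score of each 40 kb bin was 1 (replicated), -1 (unreplicated) or 0 (no data). It came from reads aligned with BWA 0.7.17-r1188, per the submitters' processing notes, and AneuFinder. RNA columns carry 1 embryo and cell name in all headers and were assigned by closing number. Another 14 columns matched no label and were not used, and 4 of the 13 labelled cells were not analysed here.

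Members, lists, named genes and the split by closing number were chosen with earlier results of these data known. Named genes were all scaRNAs, the 15 members of highest mean TPM, the 5 largest embryo differences in each direction, the 5 largest between number ranges, those nearest the threshold, and the members of hosts with 3 or more annotated small RNA genes. Gene positions, types and sequences came from GENCODE M21 (GRCm38), in which 55227 of 55487 gene identifiers were found, and class names from RefSeq by position. Where several hosts span a gene, a protein-coding one was taken first, then the shortest. Differences are of mean log2(TPM + 1), with pseudocount 1, which understates changes of low genes. Values are mean ± SD between cells, and no p-value was computed, since cells of an embryo are not replicates of it. The counting of genes without overlap was tested on simulated data. Python 3.11.15, numpy 2.4.6, pandas 2.3.3, scipy 1.17.1 and matplotlib 3.10.9 were used.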

Additional observations from a re-analysis of the deposited data

Results flagged for a closer look

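Among 51 sets of the 6 embryo 2 values examined (6 summary measures and 45 named members on the log2(TPM + 1) scale), 7 had 1 cell whose gap to the next exceeded 0.625 of the range, where chance flags about 1 in 20 for values without ties. Many of these values are tied at 0, so the number of such sets cannot be read against that rate. The summed TPM of scaRNAs was 298.67 in embryo 2 cell 3. Gm23187 was 4.80 in cell 2 and Gm23505 was 4.30 in cell 8, each with the other 5 cells at 0. Gm24451 was 0 in cell 2 and Gm25395 was 0 in cell 8, with the other 5 cells above 0. Gm25663 was lowest in cell 2, at 3.41, and Snora81 highest in cell 7, at 5.59. Groups of 3 cells were not examined, and no named member moved in opposite directions between the number ranges in the 2 embryos without overlap.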

How the results depend on the processing

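The 80 members became 200 with TPM > 1 in at least 1 cell, 4 with all 9 cells and 27 when only symbols starting with Snora, Snord or Scarna were taken, and 69 to 77 when a cell was left out. The median difference between number ranges was -0.87 with log2(TPM + 0.1), -0.025 with log2(TPM + 10), 0 over all family genes without a filter and -0.091 within embryo 2, and -0.64 to -0.26 when a cell was left out. The embryo difference in the median ran from -0.12 to 0.84 when a cell was left out, and it changed sign without embryo 1 cell 7 (-0.116). Members overlapped by a host exon were 16 instead of 44 without retained-intron transcripts. Members that did not overlap between the embryos numbered 1 to 4 when a cell was left out, with 4 without embryo 1 cell 7 and 2 without embryo 1 cell 6, embryo 2 cell 2 or embryo 2 cell 3. Fewer cells leave fewer values that can overlap in any gene. The share of all passing genes was not computed at these settings, so these counts are no result about the members. The median rho with hosts was 0.027 to 0.114. The difference in the percent of TPM was 0.036 to 0.063, and the percent of replicated member states 95.9 to 98.4. The remaining alternatives moved a value by less than the spread between cells or a count by less than 1.5 times. No paired analysis was possible because the results come from no test and a cell number shared by 2 embryos does not pair cells. Reads per value are not kept by TPM, which limits every statement on members listed at 0.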
